A study of Homo sapiens with 12 samples.

Results

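hnRNPK ChIP-seq peaks were examined on 47 genes that encode heterogeneous nuclear ribonucleoproteins (hnRNPs), serine/arginine-rich (SR) proteins and related RNA-binding proteins. The genes were chosen by name as members of these families, and they are 47 of the 20007 protein-coding gene symbols of GENCODE release 44 on chromosomes 1 to 22, X and Y. They comprised 21 genes of the hnRNP group (HNRNPA0 to HNRNPUL2, SYNCRIP and RALY), 4 poly(C)-binding protein genes (PCBP1 to PCBP4), 3 polypyrimidine tract-binding protein genes (PTBP1 to PTBP3) and 12 SR and TRA2 genes. EWSR1 and TAF15, of the FET family, made up 2 more, and ELAVL1, MATR3, SFPQ, KHSRP and KHDRBS1 were the 5 others. HNRNPK itself was among the 21.

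All samples were of HCT116, a human colorectal carcinoma cell line, and all of them overexpressed hnRNPK, controls included. In addition the cells overexpressed the long noncoding RNA CRLM1 (CRLM1-OE), or carried an empty or an antisense control construct. The 12 samples were 6 immunoprecipitated libraries and 6 input libraries, 2 biological replicates for each of the 3 groups, and they gave 6 peak lists. Neither the read depth nor the level of any RNA can be read from a peak list, so the cell line, the CRLM1 level and the hnRNPK level could not be checked.

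hnRNPs and SR proteins coat nascent transcripts and set splice-site choice, RNA export and RNA decay, in many cases with opposite effects on the same exon. hnRNPK belongs with the poly(C)-binding proteins to a family with KH domains, which hold short C-rich stretches of single-stranded RNA or DNA, and it also binds promoter DNA. Genes for RNA-binding proteins are commonly regulated by RNA-binding proteins, including their own products. This made the start regions of these genes a set in which to ask where hnRNPK was called on chromatin with and without CRLM1.

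The bases just before some of the start sites that carried peaks are shown because the known preference of hnRNPK is for C-rich strands. For each gene the 250 bases before a RefSeq start are given 5′ to 3′ on the coding strand, in GRCh38.p14 coordinates. Capitals mark CCCC where it was read on either strand, so that it appears as GGGG when the other strand holds it, and in the same way the motif CCCTCCC. They are PCBP2 at chr12:53451852-53452101 (plus strand), PCBP4 at chr3:51967467-51967716 (minus strand), PCBP1 at chr2:70087227-70087476 (plus strand), PTBP1 at chr19:797734-797983 (plus strand) and HNRNPAB at chr5:178204283-178204532 (plus strand). PCBP4 was added to this set after its values were seen. SYNCRIP, SRSF10 and HNRNPA2B1 also had a start-site peak and a RefSeq start but are not shown. The number of genes was limited, and stretches that met no peak or held untranslated or coding sequence were left out.
PCBP2: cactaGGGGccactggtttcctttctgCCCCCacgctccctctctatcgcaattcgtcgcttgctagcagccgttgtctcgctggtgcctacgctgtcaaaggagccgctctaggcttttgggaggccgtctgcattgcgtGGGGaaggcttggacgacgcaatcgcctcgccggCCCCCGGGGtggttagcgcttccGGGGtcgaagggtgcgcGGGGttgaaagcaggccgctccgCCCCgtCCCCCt
PCBP4: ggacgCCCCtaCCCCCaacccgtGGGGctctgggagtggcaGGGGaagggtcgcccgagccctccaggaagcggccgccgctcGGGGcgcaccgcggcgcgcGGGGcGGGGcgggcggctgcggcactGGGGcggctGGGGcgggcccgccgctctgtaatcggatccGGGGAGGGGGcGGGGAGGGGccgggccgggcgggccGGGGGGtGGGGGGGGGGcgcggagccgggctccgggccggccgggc
PCBP1: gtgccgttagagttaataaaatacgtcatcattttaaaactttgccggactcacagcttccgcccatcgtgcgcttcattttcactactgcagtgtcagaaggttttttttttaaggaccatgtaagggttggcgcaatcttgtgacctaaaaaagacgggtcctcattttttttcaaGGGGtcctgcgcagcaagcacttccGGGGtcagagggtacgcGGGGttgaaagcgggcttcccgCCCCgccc
PTBP1: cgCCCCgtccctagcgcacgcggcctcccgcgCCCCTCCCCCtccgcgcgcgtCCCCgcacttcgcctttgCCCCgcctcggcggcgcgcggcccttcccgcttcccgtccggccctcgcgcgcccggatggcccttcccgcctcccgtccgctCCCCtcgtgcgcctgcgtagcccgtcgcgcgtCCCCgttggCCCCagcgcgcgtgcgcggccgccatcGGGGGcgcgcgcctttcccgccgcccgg
HNRNPAB: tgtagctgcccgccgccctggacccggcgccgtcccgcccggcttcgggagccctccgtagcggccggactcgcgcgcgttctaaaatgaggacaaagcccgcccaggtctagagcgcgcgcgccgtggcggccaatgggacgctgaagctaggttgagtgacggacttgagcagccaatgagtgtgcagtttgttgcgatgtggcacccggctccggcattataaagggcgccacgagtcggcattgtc
The stretches before PCBP2, PCBP4 and PCBP1 met CRLM1-OE peaks, and those of PTBP1 and HNRNPAB met control peaks. The bases shown for PTBP1 lie before its second RefSeq start, at position 797984, in an intron of longer transcripts. Part of the PCBP1 stretch is exon of the antisense noncoding gene PCBP1-AS1, and part of the HNRNPAB stretch is exon of a noncoding gene on the opposite strand. The capitals were dense in PCBP4, with 25 overlapping matches of CCCC or its complement, against 12 in PCBP2, 11 in PTBP1 and 4 in PCBP1. The HNRNPAB stretch held none of these letters, although a peak covered all of it. GC content was 84.8% in the PCBP4 stretch, 82.4% in PTBP1, 66.0% in HNRNPAB, 65.6% in PCBP2 and 50% in PCBP1.

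PCBP1 is an intronless gene that arose from a processed copy of PCBP2, and the bases before their starts were alike. An ungapped stretch of 42 bases, lying 61 to 20 bases before the PCBP2 start and 56 to 15 bases before the PCBP1 start, had 37 identical bases. This comparison was made after the sequences had been seen. The PCBP2 copy of the stretch lay inside a CRLM1-OE peak. The PCBP1 copy did not, since the PCBP1 peak ended 96 bases before the start.

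The study assigned a peak to a gene when it lay on the gene body or within 5 kb before it, and the same rule was used here. By it 7 of the 47 genes had a peak in CRLM1-OE replicate 1 and 14 had one in CRLM1-OE replicate 2. The empty control lists had 2 each, and the antisense control lists had 2 and 3. Both CRLM1-OE lists therefore stood above all 4 control lists, and CRLM1-OE replicate 2 stood well above replicate 1. As shares, the RNA-binding protein genes reached 14.9% and 29.8% in the CRLM1-OE lists, where 10.6% and 9.4% of all protein-coding genes had a peak. In the empty control lists the share was 4.26% in each, beside 3.5% and 5.71% of all genes. In the antisense control lists it was 4.26% and 6.38%, beside 5.71% and 5.85% of all genes.

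The share in the control lists thus lay near that of all genes. Gene length and base composition can affect how often a peak falls on a gene, so each gene was also set beside the 200 protein-coding genes nearest to it in length and GC content. Of those similar genes, 7.02% and 6.71% had a peak in the CRLM1-OE lists, 2.13% and 3.07% with the empty construct, and 3.7% and 3.8% with the antisense construct. The RNA-binding protein genes stood at 2.12 and 4.44 times that level in CRLM1-OE, at 2.0 and 1.38 times with the empty construct, and at 1.15 and 1.68 times with the antisense construct. When similarity was taken on the GC of the start region instead, the similar genes reached 9.79% and 9.53% in CRLM1-OE, nearer to the value for all genes.

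Near start sites the counts were smaller. A peak touched the 1 kb either side of the start of the gene record in 4 and 5 of the 47 genes in the CRLM1-OE lists, in 0 and 1 for the empty control, and in 1 and 1 for the antisense control. The genes were PCBP2, SRSF2, SRSF10 and TRA2A in CRLM1-OE replicate 1, and PCBP2, PCBP1, HNRNPA1, HNRNPA2B1 and SYNCRIP in replicate 2. PTBP1 was the gene in empty control replicate 2 and in antisense control replicate 1, and HNRNPAB was the gene in antisense control replicate 2. The shares were 8.51% and 10.6% in CRLM1-OE, where 1.65% and 2.59% of all genes had such a peak. In the empty control they were 0% and 2.13%, beside 0.19% and 0.545% of all genes, and in both antisense control lists 2.13%, beside 0.84% and 0.89%. Genes of similar length and start-region GC had 2.28% and 3.82% in CRLM1-OE, so that the RNA-binding protein genes were at 3.74 and 2.79 times their level. In the control lists that had such a peak, a single gene put them at 2.47, 1.79 and 1.9 times the level of similar genes.

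**Figure D1:**
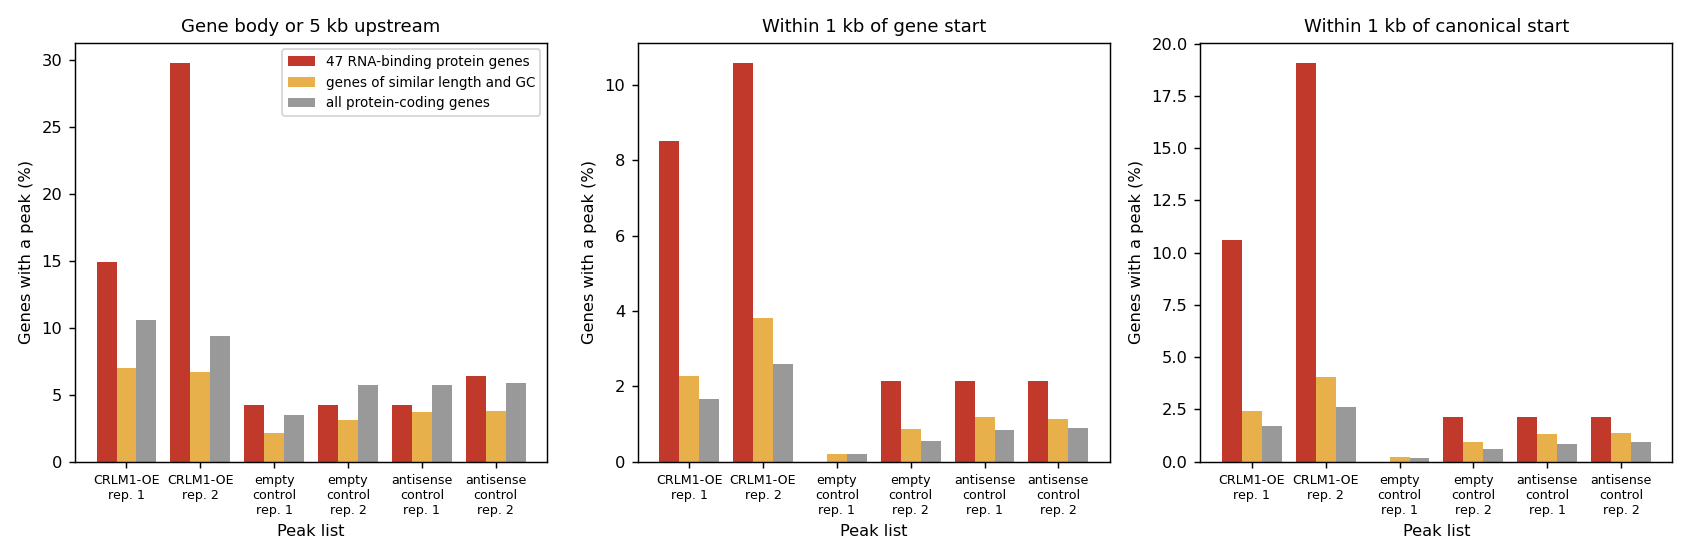
Share of genes with an hnRNPK peak (percent, vertical axis) in each of the 6 peak lists (horizontal axis) by 3 rules, for the 47 RNA-binding protein genes (red), genes of similar length and GC (yellow) and all protein-coding genes (grey). The red bars are tallest in both CRLM1-OE lists in every panel, up to 29.8% by the gene body rule, and are at most 6.38% in any control list.

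Over the 2 lists of a group, the number of these genes with a peak on the body or upstream was 10.5 ± 4.95 in CRLM1-OE, 2.0 ± 0 with the empty construct and 2.5 ± 0.707 with the antisense construct (SD, n = 2 each). CRLM1-OE exceeded the empty control by 8.5 genes and the antisense control by 8.0, each larger than the combined SD of 4.95 and 5.0, with no overlap of the lists. Leaving out CRLM1-OE replicate 2 lowered the differences to 5.0 and 4.5, and leaving out CRLM1-OE replicate 1 raised them to 12 and 11.5. Within 1 kb of the gene start the numbers were 4.5 ± 0.707, 0.5 ± 0.707 and 1.0 ± 0 (SD, n = 2 each). The differences of 4.0 and 3.5 were larger than the combined SD of 1.0 and 0.707, again with no overlap. The lack of overlap was not particular to these genes. Of all protein-coding genes, 10.6% and 9.4% had a peak on the body or upstream in CRLM1-OE, against 3.5% to 5.85% in the control lists. At gene starts 1.65% and 2.59% did, against 0.19% to 0.89%. With 2 lists against 2 there are 6 arrangements and an exact permutation test cannot go below 0.333, or below 0.133 for 2 lists against the 4 control lists, so no test was made.

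Over all protein-coding genes, too, more had a peak with CRLM1-OE. Between the group means, all genes with a peak on the body or upstream were 2.17 times as many as in the empty control and 1.73 times as many as in the antisense control, where the RNA-binding protein genes were 5.25 and 4.2 times as many. At gene starts the ratios were 5.78 and 2.45 for all genes, and 9.0 and 4.5 for the RNA-binding protein genes. The ratios of 9.0 and 4.5 rest on control means of only 0.5 and 1.0 genes, so a single control gene would move them far. List length differed in the same direction, and the CRLM1-OE lists were longest with 4339 and 3163 peaks against 1619 to 2607 in the control lists, and sequencing depth is unknown. When each list was shortened to its 1619 highest-scoring peaks, the number of genes with a peak on the body or upstream was 4 and 12 in CRLM1-OE and 2 to 3 in the control lists. At this length 4.61% and 5.69% of all genes had such a peak in CRLM1-OE, and 3.5% to 4.39% in the control lists. At gene starts the RNA-binding protein genes then numbered 2 and 4, against 0 to 1, where all genes had 0.925% and 1.87%, against 0.19% to 0.715%. Median peak width differed between lists across the groups, from 506 and 516 bp in CRLM1-OE replicate 1 and empty control replicate 2 to between 662 and 747 bp in the rest. Between these narrow lists the counts of genes were 7 against 2, and among the wide lists 14 against 2, 2 and 3. All genes stood in the same order, at 10.6% against 5.71% in the narrow lists and 9.4% against 3.5%, 5.71% and 5.85% in the wide lists. Each width held 1 CRLM1-OE list, and whether width affected the counts was not tested.

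The start of a gene record is that of its longest reach, and for 8 of the 47 genes the canonical transcript begins over 1 kb away from it. Counted at the canonical start, a setting chosen after the data were seen, 5 and 9 genes had a peak within 1 kb in the CRLM1-OE lists, or 10.6% and 19.1%, where 1.68% and 2.59% of all genes did. The genes gained were PCBP4 in both lists and HNRNPD, HNRNPH1 and SRSF9 in replicate 2. The control lists were as before, at 0 and 1 in the empty control (all genes 0.19% and 0.59%) and 1 and 1 in the antisense control (all genes 0.84% and 0.92%). Similar genes had 2.4% and 4.06% in CRLM1-OE, which put the RNA-binding protein genes at 4.42 and 4.71 times that level.

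In all, 22 of the 47 genes had a peak on the body or upstream in any of the 6 lists, or 46.8%, beside 28.3% of all genes. At gene starts 10 did, beside 5.73% of all genes. A peak in either CRLM1-OE list, and none among the controls, was found for 15 genes (all genes 11.4%), and at the gene start for 8 (all genes 3.45%). The reverse, a peak in a control list and in no CRLM1-OE list, was found for HNRNPAB, PTBP1, ELAVL1, KHSRP and KHDRBS1, or 5 genes (all genes 10.8%), and at the gene start for HNRNPAB and PTBP1, or 2 genes (all genes 1.83%). The 5 control-only genes are thus about the share that all genes show.

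**Figure D2:**
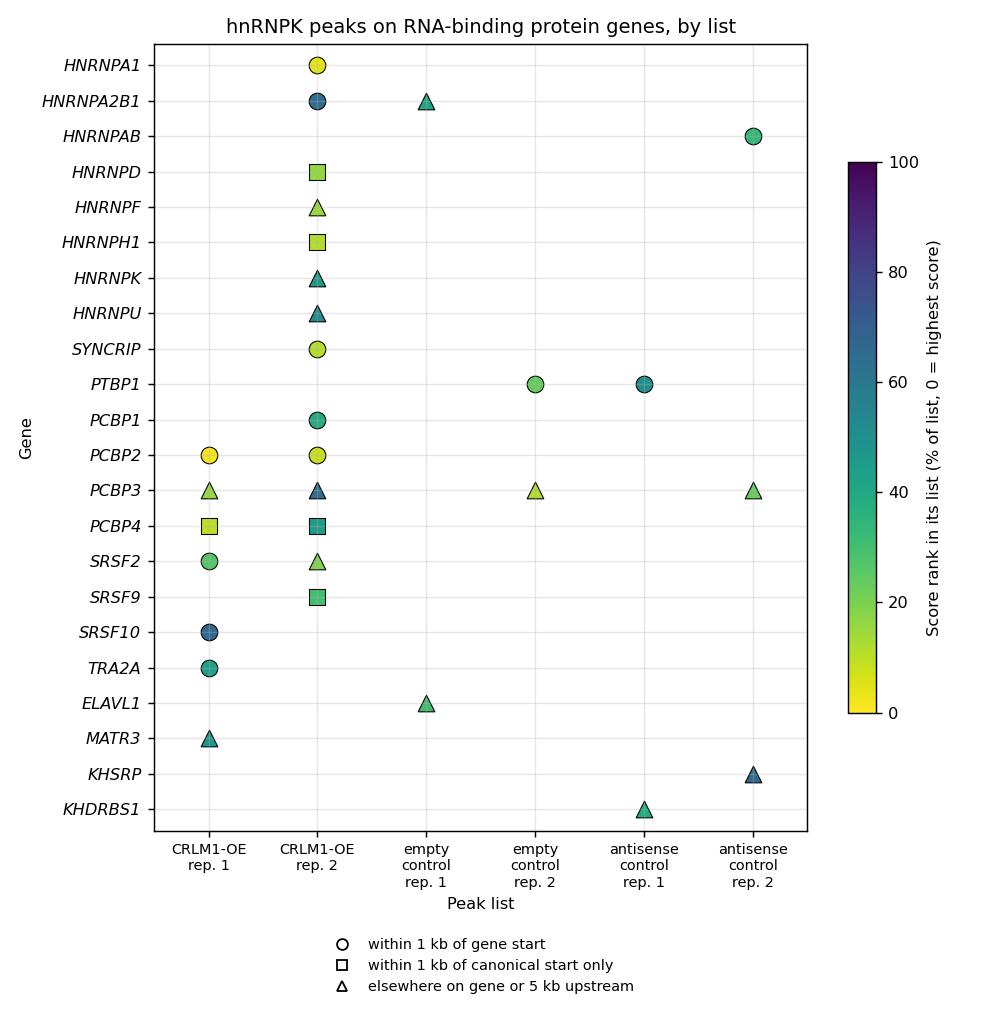
The 22 RNA-binding protein genes with a peak (rows) in each peak list (columns), with the marker shape giving the place of the peak and the colour its score rank as a percentage of the list; where a gene had several peaks in a list, the one at a start site is drawn. CRLM1-OE columns hold 7 and 14 genes and control columns 2 or 3, and the rows filled in both CRLM1-OE columns are PCBP2, PCBP3, PCBP4 and SRSF2.

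PCBP2, PCBP3, PCBP4 and SRSF2 recurred in both CRLM1-OE lists, 4 of the 7 genes of replicate 1 and of the 14 of replicate 2, where 2.52% of all genes had a peak in both. No gene of the set had one in both empty control lists (all genes 0.67%) or in both antisense control lists (all genes 0.885%). PCBP2, PCBP4 and SRSF2, or 3 genes, were in both CRLM1-OE lists with no control peak at all (all genes 1.05%). At gene starts PCBP2 alone was in both CRLM1-OE lists (all genes 0.35%) and in no control list besides (all genes 0.205%). No gene of the set had a start-site peak in both lists of the empty control (all genes 0.02%) or of the antisense control (all genes 0.055%). At canonical starts PCBP2 and PCBP4, or 2 genes, were in both CRLM1-OE lists (all genes 0.35%).

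By family, genes of the hnRNP group with a peak on the body or upstream numbered 0 of 21 in CRLM1-OE replicate 1 and 8 of 21 in replicate 2. That is 0% and 38.1%, beside 10.6% and 9.4% of all genes. In the control lists 1 of the 21 had a peak in empty control replicate 1, and 1 in antisense control replicate 2. SR and TRA2 genes numbered 3 of 12 and 2 of 12 in the CRLM1-OE lists, or 25.0% and 16.7%. At gene starts they numbered 3 of 12 and 0 of 12, where 1.65% and 2.59% of all genes had a peak. The poly(C)-binding protein genes numbered 3 of 4 and 4 of 4, and at gene starts 1 of 4 and 2 of 4. In the control lists 1 of the 4, PCBP3, had a peak in empty control replicate 2 and in antisense control replicate 2. Differences between families were not tested. Without the poly(C)-binding protein genes the set counted 4 and 10 of 43 in CRLM1-OE, 2 and 1 with the empty construct, and 2 and 2 with the antisense construct. In CRLM1-OE that was 9.3% and 23.3%, beside 10.6% and 9.4% of all genes, so replicate 1 did not stand above all genes. In the control lists the share was 2.33% to 4.65%, beside 3.5% to 5.85% of all genes. At gene starts the remaining 43 genes counted 3 and 3 in CRLM1-OE and at most 1 in any control list. That was 6.98% in each CRLM1-OE list, beside 1.65% and 2.59% of all genes. It was at most 2.33% in a control list, beside 0.19% to 0.89% of all genes.

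PCBP2 encodes hnRNP E2, a poly(C)-binding regulator of mRNA stability and translation, and it had the highest-ranked peak of the set. In CRLM1-OE replicate 1 this peak, at chr12:53452155-53453711, ranked 61 among 4339 peaks by score and began 53 bp after the start site. In CRLM1-OE replicate 2 the peak at chr12:53451606-53453466 covered the start site and ranked 270 among 3163. They overlapped by 1312 bp, and PCBP2 was the only gene of the set whose peaks in the CRLM1-OE lists overlapped each other. A further peak in replicate 2, at chr12:53454554-53455363, lay in an intron and ranked 2138. None of the 4 control lists had a peak on PCBP2.

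PCBP4, a KH-domain relative linked to growth arrest, had a peak on the canonical start in replicate 1, at chr3:51967180-51968183, which ranked 433. Its peak in replicate 2, at chr3:51966369-51967115, lay 339 to 1085 bp past that start and ranked 1424, with 65 bp between the intervals. Control lists had none. PCBP1, which encodes hnRNP E1, had a peak in CRLM1-OE replicate 2 alone, at chr2:70085940-70087381, or 1537 to 96 bp before the start, and this peak ranked 1230 among 3163. PCBP1 is the shortest gene of the set, at 1727 bp.

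PCBP3, the least studied of these paralogs, showed another pattern. It is the longest gene of the set, at 298761 bp, and carried 5 and 1 peaks in CRLM1-OE, 0 and 9 with the empty construct, and 0 and 2 with the antisense construct. All of them had their midpoint in introns, and none came within 1 kb of the gene start or canonical start. Counted at the start of any coding transcript, PCBP3 had a peak within 1 kb in CRLM1-OE replicate 1 and in no other list. It was the only gene of the set with peaks in more than 2 lists. Its peak at chr21:45760077-45760669 was the best-ranked one on any gene of the set in empty control replicate 2, at 307 among 2607, and its peak at chr21:45837726-45838267 was the best-ranked in antisense control replicate 2, at 517 among 2224. The peaks of CRLM1-OE replicate 2 and antisense control replicate 2 overlapped by 543 bp near the 3′ end, at chr21:45926744-45927373 and chr21:45926831-45927534, and no other PCBP3 peaks met between lists. Chromosome 21 as a whole held 2.97% and 1.26% of the peaks in CRLM1-OE, 0.988% and 6.29% with the empty construct, and 1.5% and 1.62% with the antisense construct. The lists with most peaks on PCBP3 were thus those with most peaks on its chromosome, and the part of that in the PCBP3 counts was not tested.

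HNRNPK, the gene of the precipitated protein, had 1 peak, in CRLM1-OE replicate 2 at chr9:83970742-83971627. It ranked 1466, lay 8588 to 9473 bp past the canonical start, and had its midpoint in an intron. When the start of any coding transcript was used, the peak was within 1 kb of one. Of the bases of the peak, 178 fell in exons of the canonical transcript. The microRNA gene MIR7-1, which lies within HNRNPK, was 884 bp from the edge of the peak. All cells carried extra hnRNPK by design, and whether construct DNA added reads at HNRNPK exons was not tested. The CRLM1 gene (LINC01767) had 2 peaks in the same library, CRLM1-OE replicate 2, the better at rank 21, and none in CRLM1-OE replicate 1 or in the controls. Peaks do not measure its RNA, so they check the label of neither CRLM1-OE library.

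Among pseudogenes named after the 47 genes, 143 in all, HNRNPKP3 was the only one with a peak. It had 1 peak in CRLM1-OE replicate 1, ranked 3102, and 1 in antisense control replicate 1, ranked 2255 among 2262, at separate places. That is 0.699% of them in each of these lists and 0% in the others, where 0.138% to 0.276% of all 15233 pseudogenes had a peak. The HNRNPKP3 record is long, at chr11:43120762-43269426, beside 12549 bp for HNRNPK. Whether the peaks lay on HNRNPK-like bases within it was not examined. How reads from near-identical copies were placed is not shown by the lists.

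HNRNPA1 and HNRNPA2B1 encode the abundant A/B proteins that repress splice sites and sort RNAs. HNRNPA1 had a peak at chr12:54280506-54281626 in CRLM1-OE replicate 2, ranked 136, which covered the canonical start. The start of CBX5, a heterochromatin protein gene transcribed the other way, lay within 1 kb of it. HNRNPA2B1 had 2 peaks in the same list. The peak at chr7:26182573-26183752 ranked 115, the best in that list for any gene of the set, but lay in the gene body, where NFE2L3 overlaps. The peak near the start, at chr7:26199631-26200721, ranked 2061, and here the start of CBX3, another heterochromatin protein gene, lay within 1 kb. A shared start region means that such peaks cannot be assigned to either gene of the pair. HNRNPA2B1 also had a peak in empty control replicate 1, at chr7:26179706-26180524, ranked 672 among 1619 and 2049 bp from the body peak of CRLM1-OE replicate 2.

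The other hnRNP genes with CRLM1-OE peaks had them in replicate 2 alone. SYNCRIP, which encodes hnRNP Q, had a peak over both its gene and canonical starts, at chr6:85642738-85644572, ranked 351. HNRNPH1, which encodes a splicing regulator that binds G tracts, had a peak over its canonical start, at chr5:179622641-179624780, ranked 366. HNRNPF, its close relative, had one at chr10:43396586-43397920, ranked 481, more than 11 kb into the gene. The midpoint of that HNRNPF peak was in a 5′ UTR, within reach of the 1 kb window around the start of another coding transcript. HNRNPD, which encodes the AU-rich element binding protein AUF1, had one at chr4:82372123-82373156, ranked 511, from 835 bp past the canonical start. HNRNPU, whose product also binds the chromatin scaffold, had one at rank 1649 in the gene body. HNRNPAB differed in that its peak, at chr5:178204195-178204975 and over the start, was in antisense control replicate 2, ranked 741 among 2224.

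PTBP1 encodes the polypyrimidine tract-binding splicing repressor, and its peaks were in control lists. They were at chr19:797365-798151 in empty control replicate 2, ranked 616 among 2607, and at chr19:797195-798476 in antisense control replicate 1, ranked 1139 among 2262. The shorter peak lay within the longer one, an overlap of 787 bp, and both covered the canonical start. Neither CRLM1-OE list, although longer, had a peak on PTBP1. PTBP2, its neuronal paralog, and PTBP3 had no peak in any list.

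**Figure D3:**
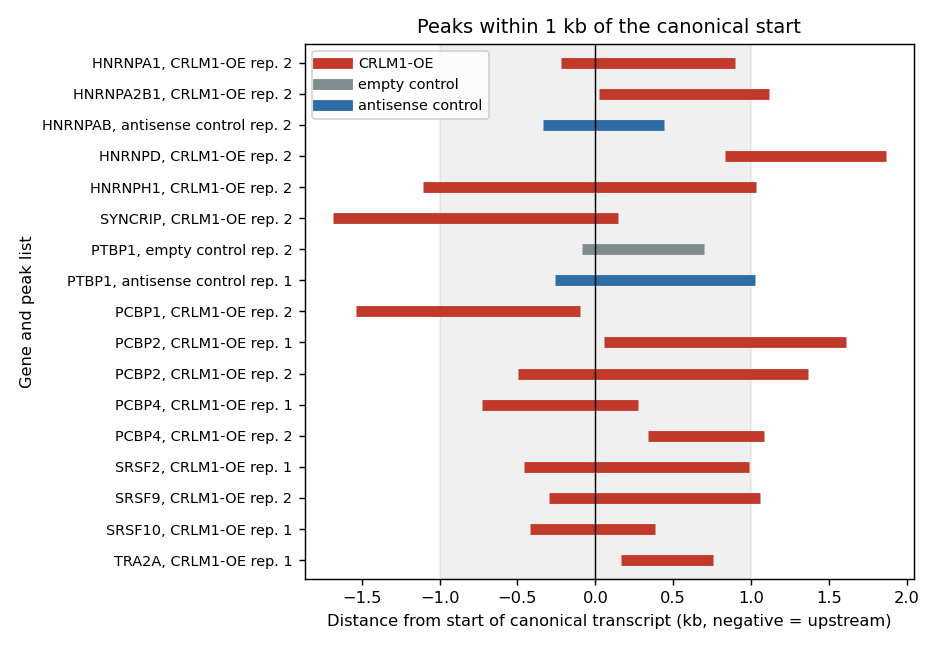
Extent of every peak within 1 kb of the canonical start of an RNA-binding protein gene (kb from the start, negative values upstream), 1 bar per gene and list, red for CRLM1-OE, grey for the empty control and blue for the antisense control; the shaded band is the 1 kb window. Of the 17 bars 14 are from CRLM1-OE, and 11 cross the start site.

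Among SR genes, SRSF2, which encodes the exon-definition factor SC35, was met in both CRLM1-OE lists but at opposite ends. In replicate 1 the peak at chr17:76736342-76737790, ranked 1138, covered the start, and the start of MFSD11 also lay within 1 kb of it. In replicate 2 the peak at chr17:76732295-76735120, ranked 596, lay at the 3′ end and reached METTL23, with 1222 bp between the intervals. The midpoint of this second peak was downstream of SRSF2, and the MFSD11 start lay within 1 kb of it too. Counted by peak midpoint, SRSF2 had no peak in replicate 2. SRSF10, whose product can repress splicing when dephosphorylated, had a start-region peak in replicate 1 at chr1:23979946-23980746, ranked 2885. TRA2A, a sequence-specific activator of exons, had one in replicate 1 at chr7:23531226-23531815, ranked 1863. SRSF9, which encodes a small SR protein, had one in replicate 2 over its canonical start, at chr12:120468692-120470043, ranked 949, and the start of the dynein light chain gene DYNLL1 lay within 1 kb. No control list had a peak on any of the 12 SR and TRA2 genes. In these lists 3.5% to 5.85% of all genes had one, so none among 12 genes is near the share of all genes.

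Of the 5 other RNA-binding protein genes, SFPQ had no peak, and 4 had 1 peak each, none at a start site. MATR3, a nuclear matrix protein gene, had an intronic peak in CRLM1-OE replicate 1, ranked 2008, which also touched SIL1. ELAVL1, which encodes HuR, a stabiliser of AU-rich mRNAs, had an intronic peak in empty control replicate 1, ranked 495 among 1619, the best there on any gene of the set. KHDRBS1, which encodes Sam68, had an intronic peak at chr1:32038413-32039020 in antisense control replicate 1, ranked 866 among 2262, again the best of the set there. KHSRP, whose product promotes decay of AU-rich mRNAs, had a peak in antisense control replicate 2, ranked 1454, which lay 4546 to 5115 bp upstream, on the neighbouring gene SLC25A41.

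The 25 genes without a peak in any list were HNRNPA0, HNRNPA3, HNRNPC, HNRNPDL, HNRNPH3, HNRNPL, HNRNPLL, HNRNPM, HNRNPR, HNRNPUL1, HNRNPUL2 and RALY, the polypyrimidine tract-binding genes PTBP2 and PTBP3, SRSF1, SRSF3, SRSF4, SRSF5, SRSF6, SRSF7, SRSF11 and TRA2B, EWSR1 and TAF15, and SFPQ. They include HNRNPC and SRSF1, classical members of their families. The median length was 32517 bp for the genes without a peak and 22788 bp for the 22 with one, and the median GC of the 2 kb around the gene start was 57.2% and 60.6%. Over all 47 genes these medians were 23570 bp and 59.2%, beside 27466 bp and 55.0% for all protein-coding genes. A list without a peak shows only that none was called, and at unknown depth it sets no limit on binding.

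The 45 peaks on these genes spanned a broad range of scores. Ranks ran from 1.41% to 89.7% of the list from the top, with a median of 33.3%, and widths from 403 to 2826 bp, with a median of 777 bp. Of the 45, 27 were from CRLM1-OE, 12 from the empty control, of which 9 on PCBP3, and 6 from the antisense control. Introns held 32 of the midpoints, 5 lay in a 5′ UTR and 2 in coding sequence. By group, 16 of 27 midpoints were intronic in CRLM1-OE, 12 of 12 in the empty control, where 9 were those on PCBP3 in 1 list, and 4 of 6 in the antisense control.

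Lists of other genes show how far the start-site counts were shared by the RNA-processing machinery. Start-site peaks were found for 1.65% and 2.59% of all genes in the CRLM1-OE lists, and for 0.19% to 0.89% in the control lists. Of 33 core spliceosome genes 1 had a start-site peak in each CRLM1-OE list, and 0 in every control list, near the share of all genes. Of 8 genes for SR protein kinases and nuclear import 0 had one in any list, which for so few genes is also near that share. Of 12 SR-related genes 0 and 3 had one in CRLM1-OE, namely SON, SAFB2 and LUC7L3, and 0 in the controls. Of 31 other RNA-binding protein genes 2 and 3 had one in CRLM1-OE, 0 and 0 with the empty construct, and 1 and 1 with the antisense construct. CIRBP, which encodes a cold-inducible RNA-binding protein, was the only gene of these lists with a start-site peak in both CRLM1-OE lists.

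Housekeeping genes outside splicing gave mixed values. Of 31 proteasome genes 0 and 1 had a start-site peak in CRLM1-OE and 0 in every control list, again near the share of all genes. Of 94 ribosomal protein genes 2 and 9 had one in CRLM1-OE, 0 and 0 with the empty construct, and 1 and 0 with the antisense construct, with RPL3 and RPS2 in both CRLM1-OE lists. On the body or upstream, the ribosomal protein genes had 8.51% and 34.0% in CRLM1-OE, beside the 14.9% and 29.8% of the 47 RNA-binding protein genes. The high value in CRLM1-OE replicate 2 was therefore not particular to the hnRNP and SR families. The core spliceosome had 15.2% and 3.03%, with the higher value in replicate 1. The 12 SR-related genes had 16.7% and 41.7%, above the 47 genes in both CRLM1-OE lists. Lower values were found for other RNA-binding genes, at 9.68% in each, the proteasome, at 0% and 12.9%, and the kinase and import list, at 0% in each. RNA levels were not measured in these files, so whether the counts follow expression was not tested.

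**Figure D4:**
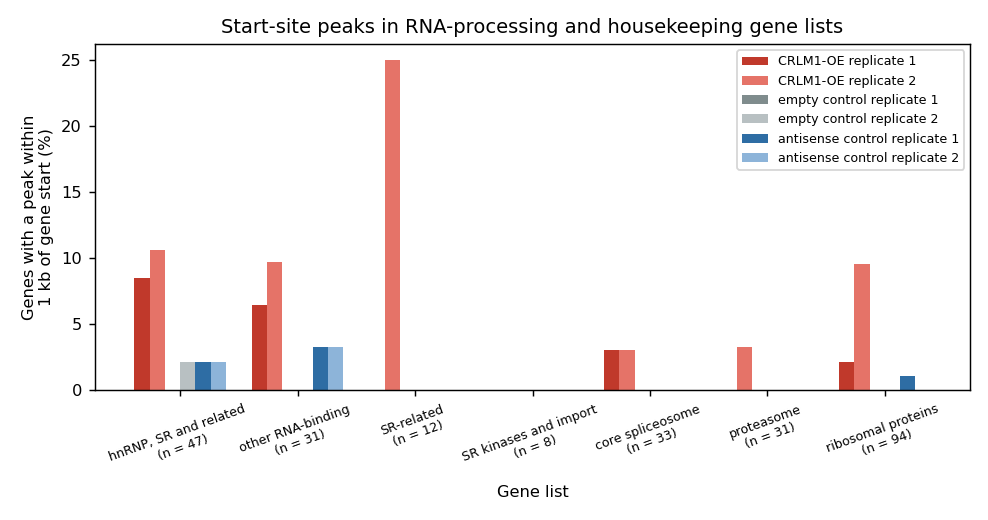
Share of genes with a peak within 1 kb of the gene start (percent, vertical axis) for the 47 hnRNP, SR and related genes and 6 other gene lists (horizontal axis), 1 bar per peak list. In CRLM1-OE the 47 genes have bars of 8.51% and 10.6%, other RNA-binding genes 6.45% and 9.68%, ribosomal protein genes 2.13% and 9.57%, SR-related genes 0% and 25.0%, the proteasome 0% and 3.23%, the core spliceosome 3.03% in each, and the kinase and import list no bar.

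CCCC was searched for on both strands, as was the longer motif CCCTCCC, in windows of 250 bases before to 50 bases after RefSeq starts, and matches of these motifs may overlap. CCCTCCC is the repeat of the CT element known from the MYC promoter. It was in the windows of 22 of 40 genes of the set that had an entry, or 55.0%, and of 29.4% of 27305 genes in the table. CCCC was in 98.2% of the 57 windows of the set and in 89.6% of all 35116 windows. The windows of the set were also richer in GC, with a median of 66.3% against 58.7%. Among the 7 genes with an entry and a start-site peak, 4 had CCCTCCC in a window, or 57.1%, close to the share of the whole set.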

How the data were processed

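Chromatin from 12 HCT116 samples was sequenced, and 6 immunoprecipitated libraries each had a peak list, called against input per replicate and not on pooled libraries. According to the methods and the submitters' processing notes, the authors used cutadapt for trimming, Bowtie2 for alignment to GRCh38 and MACS2 for peak calling. Each deposited list gives a chromosome, start, end, name and score per peak. The lowest deposited score was 50, which if it is 10 times the negative log10 of p is a p of 1e-05, whereas the methods name a q-value, so the caller settings are uncertain. The score was used only to rank peaks within a list. Read depth is unknown, which leaves peak numbers unscaled, and peak lists of unequal depth are unequal in length.

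The autosomes and the X and Y chromosomes held 16214 of the 16768 deposited peaks, and these were used. Lists were analysed with Python 3.11.15, numpy 2.4.6, pandas 2.3.3, pysam 0.24.0 and samtools 1.23.1 against GENCODE release 44, and plotted with matplotlib 3.10.9. A gene had a peak when at least 1 bp of a peak touched the body or the 5 kb upstream, or the 1 kb either side of the start. MATR3 has 2 records and counted if either did. Similar genes were the 200 nearest in log10 length and GC, of the body plus upstream for the gene body rule and of the 2 kb around the start for the start rule. The counting code was tested on simulated data. Shares of genes carry no interval because genes are not replicates, and no p-value was computed. Promoter sequences are from RefSeq (GRCh38.p14), with an entry for 40 of the 47 genes. HNRNPA1, PCBP3, SRSF2, TRA2A, TAF15, ELAVL1 and SFPQ had none.

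The 47 genes, the other gene lists and the rules were chosen with earlier results of these data known. Genes were described by rule where they had a start-site peak in both CRLM1-OE lists, a peak in 3 or more lists or the best score rank in a list, with HNRNPK added. From the other gene lists, those with a start-site peak in both CRLM1-OE lists were named, and so were neighbours whose start lay within 1 kb of such a peak. The remaining genes were named to account for every gene of the set. Alternatives were a higher score threshold, equal list lengths, other gene and start windows, overlapping peaks, other similar genes and leaving out each list. The peak midpoint and the canonical start were added after the data were seen.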

Additional observations from a re-analysis of the deposited data

How the results depend on the processing

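With 1619 peaks per list, CRLM1-OE replicate 1 had 4 genes on the body or upstream (all genes 4.61%) and 2 at gene starts (0.925%). With the 1000 highest-scoring peaks these were 3 (3.02%) and 1 (0.65%), CRLM1-OE replicate 2 had 9 (4.03%) and 3 (1.54%), antisense control replicate 1 had 1 (2.79%) and 0 (0.555%), and 1 gene was in both CRLM1-OE lists. With scores above the median, antisense control replicate 1 had 1 (3.14%) and 0 (0.585%). The empty control counts stayed at 2 and 2, and at 0 and 1, under these list lengths and scores. When the peaks of both CRLM1-OE lists had to overlap, 1 gene was left, PCBP2. Start definition moved CRLM1-OE replicate 2 from 5 genes (2.59%) to 9 at canonical starts (2.59%) and 11 at the start of any coding transcript (3.17%). With GC of the start region, similar genes had 9.79% and 9.53% in CRLM1-OE, 4.99% in empty control replicate 2, and 4.82% and 5.03% in the antisense control by the gene body rule. With the 50 nearest genes, antisense control replicate 2 had 3.45% by that rule, and 1.11% and 1.32% was found in the antisense control at gene starts. Leaving out each list in turn gave differences at gene starts of 3.5 to 4.5 from the empty control and 3.0 to 4.0 from the antisense control, and on the body or upstream of 5.0 to 12 and 4.5 to 11.5. Of 130 values under an alternative, 22 went past the tolerance used, which was 1.5 times for a count and the SD between replicates for a share or a difference, and 108 did not. That SD is wide for the differences on the body or upstream and narrow for some shares. No difference between groups changed sign, but leaving out a list could not have changed it, because the CRLM1-OE and control lists did not overlap. No paired analysis was possible because the counts come from no test, and same-numbered lists share only a number. Unknown depth, 2 lists per group and scores near the calling floor limit what these counts can show.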
